A study of Mus musculus with 4 samples.

Results

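The clustered protocadherin genes were examined for H3K27me3, the trimethylation of lysine 27 of histone H3 that the Polycomb enzyme Ezh2 places on repressed genes. All genes whose symbols start with Pcdha, Pcdhb or Pcdhg were taken as members, together with every peak between the first Pcdha and the last Pcdhg gene. This gave 58 members, namely 14 Pcdha, 22 Pcdhb and 22 Pcdhg genes. All of them except Pcdhgb8, a polymorphic pseudogene, are among the 21951 protein-coding genes of the annotation. The members lie side by side on chromosome 18 of the mouse genome (build mm10) from 36930184 to 37841873, a stretch of 912 kb. Of the 10223 peaks of the library from 500 cells, 10 lay in this stretch, and of the 15282 peaks of the library from 15000 cells, 26 did.

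The cells were erythro-myeloid progenitors (EMPs) of the yolk sac of C57BL/6 embryos at E10.5, which the study sorted by surface markers. Their genotype label joins a floxed Ezh2 allele and a Tie2-Cre notation to the words wild type, and they were read as wild type, as the study does. H3K27me3 was profiled by CUT&RUN, in which an antibody directs a nuclease to the mark and the released DNA is sequenced, and an IgG library beside each H3K27me3 library gave the background for peak calling. There was 1 H3K27me3 library from 500 EMPs and 1 from 15000 EMPs, so no test between cell numbers was possible and no spread between replicates can be given. The libraries also differed in PCR cycles (17 and 16), in read length (76 and 59 bp), in instrument and in the p-value threshold of the peak calls (0.01 and 0.05). Fewer reads and a smaller aligned share are given for 500 EMPs in the reporting summary. Cell number cannot be told apart from these differences, and the files carry no read count, so no depth was computed.

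Clustered protocadherins are cell surface adhesion proteins, best known from neurons, where each cell uses a small and largely random choice of them as a molecular identity. In the Pcdha and Pcdhg clusters every member has its own large variable first exon with its own promoter, which encodes the outside of the protein and the membrane segment. This exon is spliced to short constant exons at the end of the cluster, which all members of that cluster share. Pcdhb genes lack constant exons and consist of their large exon alone. The C-type members Pcdhac1, Pcdhac2, Pcdhgc3, Pcdhgc4 and Pcdhgc5 stand at the ends of their clusters, and several of them are used more evenly across neurons than the other members.

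H3K27me3 peaks were unevenly spread over the 3 clusters. The Pcdhg cluster held 8 peaks with 500 EMPs and 25 peaks with 15000 EMPs. The Pcdha cluster held 2 peaks and 1 peak, all of them at its last member, Pcdhac2. The Pcdhb cluster, which lies between them, held 0 peaks in either library.

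**Figure D1:**
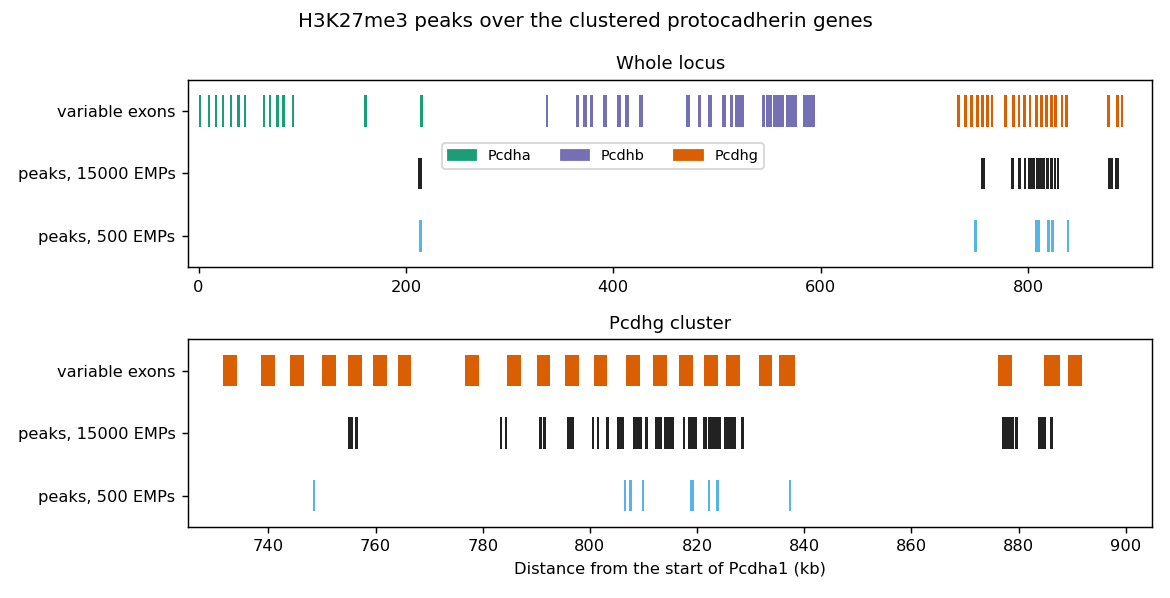
Positions of variable exons (top row, coloured by cluster) and of H3K27me3 peaks in the libraries from 15000 EMPs (middle row, black) and 500 EMPs (bottom row, blue), for the whole locus and for the Pcdhg cluster alone; the x axis is the distance from the start of Pcdha1 in kb, and bars narrower than the line are drawn at a minimum width. Peaks lie at the last Pcdha member and in the Pcdhg cluster, and 0 peaks lie over the Pcdhb genes.

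In covered length the order of the clusters was the same. With 15000 EMPs, peaks covered 24347 bp of the Pcdhg cluster (37661793 to 37841873, 180.1 kb), a share of 13.5%. They covered 3687 bp of the Pcdha cluster (36930184 to 37187661, 257 kb), a share of 1.43%, and 0 bp of the Pcdhb cluster (37264938 to 37524479, 260 kb). For comparison, peaks of this library covered 0.909% of the genome and 0.753% of chromosome 18. With 500 EMPs the shares were 1.77% for Pcdhg, 0.346% for Pcdha and 0% for Pcdhb, beside 0.226% of the genome and 0.145% of chromosome 18. Pcdhg thus had the highest share of the 3 clusters in both libraries, and Pcdha also stood above the share of the chromosome, through Pcdhac2 alone. With 500 EMPs this no longer held when only peaks of at least 500 bp were used, which left 0% of Pcdha covered.

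A member was next called marked when at least 1 bp of a peak lay over its variable exon, taken as the exon with the longest coding part. With 15000 EMPs, 13 of the 58 members were marked (22.4%, 95% Wilson interval 13.6 to 34.7%), whereas the same rule called 6.2% of all protein-coding genes. With 500 EMPs, 5 of the 58 were marked (8.62%, interval 3.74 to 18.6%), beside 2.37% of all protein-coding genes. Since variable exons are long and offer more room for a peak, the 4220 other genes with such an exon of at least 1500 bp were counted as well. Of these, 10.2% were marked with 15000 EMPs and 5.5% with 500 EMPs. The intervals cover counting error only, and neighbours in a tandem cluster can share 1 stretch of the mark, so they are not independent.

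The marked share rested on the Pcdhg genes. With 15000 EMPs, 12 of the 22 Pcdhg members were marked (54.5%, interval 34.7 to 73.1%), 1 of the 14 Pcdha members (7.14%, interval 1.27 to 31.5%) and 0 of the 22 Pcdhb members (interval up to 14.9%). With 500 EMPs, 4 of the 22 Pcdhg members were marked (18.2%, interval 7.31 to 38.5%), again 1 of the 14 Pcdha members and 0 of the 22 Pcdhb members. When at least 50% of the exon had to be covered, 6 Pcdhg members with 15000 EMPs and 0 with 500 EMPs were marked, and when only peaks that overlapped the other list were used, 3 and 2 were. For Pcdha, with 1 marked member, and for Pcdhb, with 0, the interval included the share of all genes in both libraries, so neither was told apart from that share by this rule.

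A narrower window around the start of each gene gave lower counts. When a peak had to touch the 300 bp from 250 bp before to 50 bp after the start, 6 of 22 Pcdhg members were marked with 15000 EMPs (27.3%, interval 13.2 to 48.2%), beside 10.3% of all protein-coding genes. With 500 EMPs it was 1 of 22 Pcdhg members, beside 2.41% of all protein-coding genes. Pcdhac2 was the only Pcdha member marked by this rule in either library, and 0 Pcdhb members were. When only peaks that overlapped the other list were used, the Pcdhg count fell to 0 in both libraries.

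The annotated tables, in which the authors paired peaks with genes, were read with a distance limit of 3 kb. They listed 15 of 22 Pcdhg members with 15000 EMPs (68.2%, interval 47.3 to 83.6%) and 7 of 22 with 500 EMPs (31.8%, interval 16.4 to 52.7%), beside 16.8% and 9.77% of all protein-coding genes. In each library Pcdhac2 was the 1 Pcdha member listed and 0 Pcdhb members were listed. For Pcdhb the interval, up to 14.9%, ended below the share of all genes with 15000 EMPs and included it with 500 EMPs. That interval treats neighbouring genes as independent. With 500 EMPs the Pcdhg count fell to 2 with a limit of 1 kb and to 4 with peaks of at least 500 bp. The tables counted more Pcdhg members than the exon rule because a peak up to 3 kb from a gene was enough. In this way Pcdhgb2, Pcdhgb8 and Pcdhgc5 were listed with 15000 EMPs although 0 bp of their variable exons were covered.

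**Figure D2:**
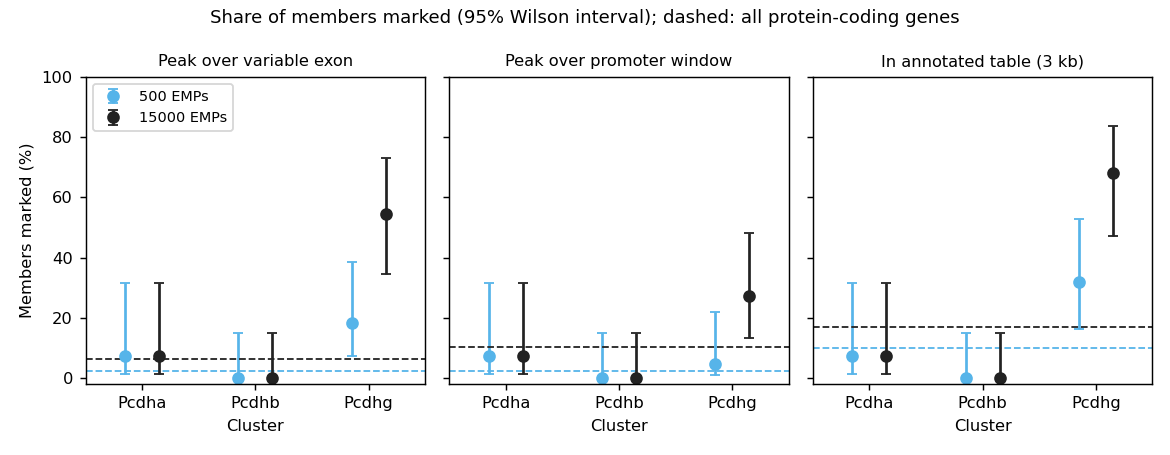
Share of members marked in each cluster (y axis, percent) by the 3 rules, for 500 EMPs (blue) and 15000 EMPs (black), with 95% Wilson intervals that cover counting error only; dashed lines give the share of all protein-coding genes in the same library. With 15000 EMPs the Pcdhg interval lies above the dashed line under each rule, and Pcdhb is at 0 throughout.

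Within the Pcdhg cluster, coverage differed widely from member to member. The cluster mixes genes of the A and B subfamilies, with A genes in a row from Pcdhga1 to Pcdhga3 and from Pcdhga5 to Pcdhga7. It ends with the C-type genes. With 15000 EMPs, Pcdhgb7 had the most covered variable exon, 2349 of 2594 bp (90.6%). It was followed by Pcdhga11 with 1899 bp (72.0%), Pcdhgb6 with 1777 bp (69.3%), Pcdhgc3 with 1743 bp (67.9%) and Pcdhga4 with 1362 bp (52.2%). Both subfamilies and a C-type gene were thus among the 5 most covered exons.

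The other marked exons were covered in part. Pcdhga10, Pcdhga8, Pcdhga9 and Pcdhgb4 were covered at 41.9 to 51.6% of their length. Pcdhgc4 was covered at 28.4% and Pcdhgb5 at 25.2%. Pcdhga7 was marked through 94 bp (3.60%), the end of a peak that lay mostly before its start. The count of 12 marked members therefore joined exons that were almost filled with exons that a peak only touched.

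Members without a peak over the variable exon with 15000 EMPs were Pcdhga1, Pcdhga2, Pcdhga3, Pcdhgb1, Pcdhgb2, Pcdhga5, Pcdhga6, Pcdhgb8, Pcdhga12 and Pcdhgc5. The nearest peak lay 20785 bp from the exon of Pcdhga1, the first gene of the cluster, and 13625 bp from that of Pcdhga2. For Pcdhgb1, Pcdhgb2, Pcdhgb8 and Pcdhgc5 it lay between 2311 and 2922 bp away. Of the unmarked members, 7 were among the first 11 of the cluster and 3 among the last 11.

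**Figure D3:**
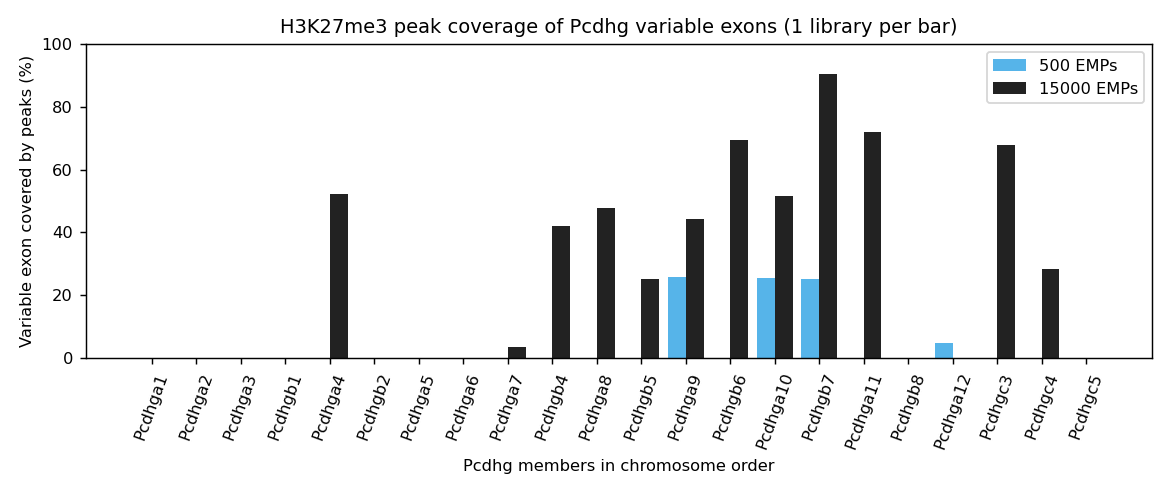
Percent of each Pcdhg variable exon covered by H3K27me3 peaks (y axis) for the 22 members in chromosome order (x axis), with 500 EMPs in blue and 15000 EMPs in black; each bar is 1 library, so there is no error bar. With 15000 EMPs the 9 members from Pcdhga7 to Pcdhga11 are all marked, between 3.60 and 90.6%, and the highest value with 500 EMPs is 25.8%.

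Most of the marked Pcdhg members were neighbours with 15000 EMPs. The longest run of marked members in chromosome order held 9 genes, Pcdhga7, Pcdhgb4, Pcdhga8, Pcdhgb5, Pcdhga9, Pcdhgb6, Pcdhga10, Pcdhgb7 and Pcdhga11. Outside it, Pcdhga4 was marked between unmarked neighbours, and Pcdhgc3 and Pcdhgc4 were marked beside each other. With 500 EMPs the longest run held 2 genes, Pcdhga10 and Pcdhgb7. From the start of Pcdhga7 to the end of the variable exon of Pcdhga11 (37714764 to 37758367, 43.6 kb), 17 peaks covered 17327 bp (39.7%). This stretch was picked out by its peaks, so its share is a description. In it the mark was not limited to exons, since 49.6% of the variable exon length and 28.3% of the length between the exons were covered. With 500 EMPs, 6 peaks covered 6.69% of the same stretch, 8.51% of the exons and 4.58% of the length between them.

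Split by order alone, 8 of the last 11 Pcdhg members and 4 of the first 11 were marked with 15000 EMPs, and the intervals, 43.4 to 90.3% and 15.2 to 64.6%, overlapped. With 500 EMPs the counts were 4 and 0, with overlapping intervals of 15.2 to 64.6% and 0 to 25.9%. By subfamily, 6 of 12 A genes, 4 of 7 B genes and 2 of 3 C-type genes were marked with 15000 EMPs. With so few genes in each subfamily the intervals overlapped widely, 25.4 to 74.6% for A, 25.05 to 84.2% for B and 20.8 to 93.9% for C-type genes.

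The C-type genes of both clusters were compared because of their separate use in neurons. Pcdhac2 was covered over 2534 of the 3028 bp of its first exon with 15000 EMPs (83.7%), by a peak of 3687 bp from 37142350 to 37146036 that ran across the start and was the widest peak of the locus. With 500 EMPs, a peak of 475 bp (37142803 to 37143277) lay 226 bp before the first exon and reached 25 bp into the promoter window, and a peak of 415 bp (37143960 to 37144374) lay in the exon, and both fell inside the 15000-EMP peak. Pcdhac1, the other C-type gene of its cluster, had no peak, and the nearest lay 49779 bp from its exon with 15000 EMPs and 50232 bp with 500 EMPs.

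In the Pcdhg cluster, Pcdhgc3 and Pcdhgc4 were marked with 15000 EMPs and Pcdhgc5, the last member, was not. None of the 3 had a peak over the exon with 500 EMPs, which allows an upper bound of 56.1% for such a count. The nearest 500-EMP peaks lay 38822, 47491 and 51925 bp from their exons. The mark at Pcdhgc3 and Pcdhgc4 was therefore seen in the 15000-EMP library alone.

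The remaining Pcdha members, Pcdha1 to Pcdha12, had 0 bp of variable exon covered in either library (0 of 12, interval up to 24.2%). They lie in a peak-free stretch that reached from Cd14, a neighbouring gene for a receptor of bacterial lipopolysaccharide, to Pcdhac2 and measured 415 kb with 500 EMPs and 413 kb with 15000 EMPs. All 22 Pcdhb genes, from Pcdhb1 to Pcdhb22, lie in a further peak-free stretch between Pcdhac2 and the first Pcdhg peak, of 534 kb with 500 EMPs and 539 kb with 15000 EMPs. Such stretches were not rare on chromosome 18. With 15000 EMPs, 42 of its 446 intervals between peaks were longer than the stretch over Pcdhb (9.42%), and with 500 EMPs 38 of 278 were (13.7%). By length alone, the peak-free stretches of the locus were among the longer intervals of the chromosome and not the longest.

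The position of the mark inside the genes was then examined. Of the 25 peaks in the Pcdhg cluster with 15000 EMPs, 20 touched a variable exon, and of the 8 peaks with 500 EMPs 6 did. Variable exons make up 32.0% of the cluster, and they held 63.7% of the covered length with 15000 EMPs and 66.6% with 500 EMPs. The 32.0% includes exon-poor parts of the cluster without peaks. From Pcdhga7 to Pcdhga11, where 17 of the 25 peaks with 15000 EMPs lay, the contrast was smaller. There exons made up 23339 of 43604 bp and held 11583 of 17327 covered bp. The shared constant exons of Pcdha and Pcdhg had 0 bp covered in both libraries. The mark thus lay over the exons that differ between members and in the space between them, and not over the exons that members share.

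Averaged over the 22 Pcdhg members in windows of 200 bp, coverage with 15000 EMPs was highest 1400 bp after the start of the gene, at 37.5%, with 9 members contributing. It was 24.1% at the start itself, with 6 members contributing, and 9.09% in the window 600 bp before it. With 500 EMPs the mean was 3.05% at the start and 9.36% at its highest, in a window 2000 bp before it to which 3 members contributed. The 500-EMP profile therefore rested on few peaks. Members lie close together, so windows before a start can fall in the exon of the preceding member and count the same peak again, as with the 500-EMP peaks in Pcdhga10 and Pcdhgb7, which also lie before the starts of Pcdhgb7 and Pcdhga11.

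**Figure D4:**
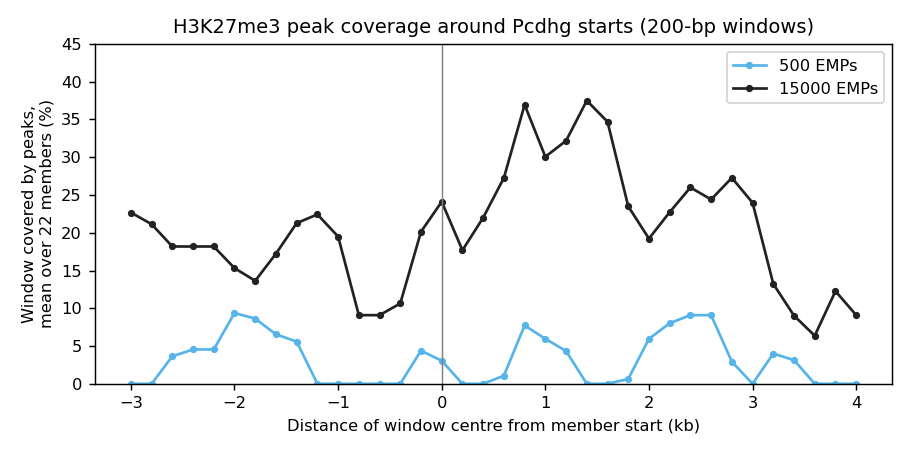
Mean percent of each 200-bp window covered by H3K27me3 peaks (y axis) over the 22 Pcdhg members, against the distance of the window's centre from the start of the member in kb (x axis, positive inside the gene), with 500 EMPs in blue and 15000 EMPs in black. Coverage with 15000 EMPs is 24.1% at the start and reaches 37.5% inside the variable exon, and with 500 EMPs it stays at or below 9.36%.

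Peaks in the Pcdhg cluster were short. Their median width was 595 bp with 15000 EMPs (range 209 to 2310 bp) and 320.5 bp with 500 EMPs (range 137 to 754 bp), beside genome medians of 771 and 363 bp. The widest Pcdhg peak with 15000 EMPs, of 2310 bp, lay over Pcdhgb7 (37752349 to 37754658), and the widest with 500 EMPs, of 754 bp, over Pcdhga10 (37748940 to 37749693). The cluster was thus called as many peaks and not as 1 wide peak. This count depended on how calls were split. With 15000 EMPs, 13 peaks remained when those within 1 kb were joined and 7 when those within 3 kb were. Peak positions alone cannot tell many small domains from 1 domain split into several calls.

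The HoxB genes, body-plan regulators known as a dense Polycomb target, gave a measure for the covered share. From Hoxb9 to Hoxb1 (chromosome 11, 96271457 to 96368256, 96.8 kb), 37 peaks covered 62.8% of the span with 15000 EMPs and 38 peaks covered 32.7% with 500 EMPs. The Ugt1a genes, detoxifying enzymes built like Pcdha and Pcdhg from variable first exons and shared later exons, had 0 peaks in 164.6 kb in both libraries. The Pcdhg share of 13.5% thus lay between those of these clusters.

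The libraries were next compared peak by peak. In the locus, 6 of the 10 peaks with 500 EMPs overlapped a 15000-EMP peak (60.0%, 95% Wilson interval 31.3 to 83.2%), whereas 91.2% of 500-EMP peaks did so genome-wide (interval 90.7 to 91.8%). In the other direction 4 of 26 did (15.4%, interval 6.15 to 33.5%), beside 32.2% genome-wide (interval 31.4 to 32.9%). In length, 2535 bp were shared, 62.1% of the 500-EMP and 9.04% of the 15000-EMP coverage of the locus. The interval for the 500-EMP peaks ended below the genome-wide share, whereas that for the 15000-EMP peaks included it. Both rest on few neighbouring peaks, which the intervals treat as independent.

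By gene, 4 members were marked at the variable exon in both libraries, Pcdhac2, Pcdhga9, Pcdhga10 and Pcdhgb7. This was 80.0% of the members marked with 500 EMPs and 30.8% of those marked with 15000 EMPs. A further 9 were marked with 15000 EMPs alone and 44 in neither library. Pcdhga12 was marked with 500 EMPs alone, through a peak of 137 bp, the smallest width in that list. The other 500-EMP peak of 137 bp in the locus (37678645 to 37678781) lay 1452 bp before the exon of Pcdhgb1 and also had no counterpart.

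At Pcdhga9 the agreement by gene hid a disagreement in position. With 500 EMPs, a peak lay over the start (37736643 to 37736969) and another in the exon (37737589 to 37738226). With 15000 EMPs, peaks lay on either side of them, from 37735278 to 37736582 and from 37738386 to 37740067, at distances of 61 and 160 bp. The start of Pcdhga9 was therefore marked with 500 EMPs only, although its exon was marked in both libraries. At Pcdhga10 and Pcdhgb7, by contrast, all 3 of the 500-EMP peaks lay wholly inside 15000-EMP peaks.

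The variable exons resemble each other in sequence, and reads that match several members cannot be placed with certainty. Features of the exons were therefore computed from the genome. The share of 59-base words found only once in the genome, 59 bp being the shorter read length, had a median of 99.9% in Pcdhg (range 84.02 to 100%), 97.6% in Pcdhb (range 91.2 to 100%) and 87.2% in Pcdha (range 76.6 to 100%). The reads were paired-end, and this share takes no account of the second read of a pair. The alignment command listed by the study shows no step that removes reads with several matches. Pcdhb exons, which had no peak, were thus nearly as unique as Pcdhg exons, whereas Pcdha1 to Pcdha12 were the least unique group, at 76.6 to 92.2%. Whether this had a part in the absence of peaks over Pcdha was not tested.

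Among the B genes, the marked Pcdhgb4, Pcdhgb5, Pcdhgb6 and Pcdhgb7 had 90.7 to 98.5% unique words. The unmarked Pcdhgb1, Pcdhgb2 and Pcdhgb8 had 84.6, 84.02 and 91.9%, so the ranges of marked and unmarked B genes overlapped. The A genes, marked or not, lay between 96.7 and 100%. Over the 22 members, the covered length with 15000 EMPs and the share of unique words had a Spearman's rho of -0.03 and a Pearson's r of 0.12. These members share a library and overlapping stretches of the mark, so the coefficients are descriptions.

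CpG richness, which is known to accompany Polycomb binding in mammals, was measured relative to base content and also differed between clusters. The ratio of observed to expected CpG in the variable exon had a median of 0.665 in Pcdha, 0.386 in Pcdhb and 0.555 in Pcdhg. The exons are not alike in content, since the median exon and coding lengths were 3714 and 2388 bp in Pcdhb, which includes long untranslated parts, against 2604 and 2421 bp in Pcdhg. Within Pcdhg, the median was 0.623 in the 12 marked and 0.475 in the 10 unmarked members with 15000 EMPs, with ranges of 0.394 to 0.780 and 0.345 to 0.732. Covered length and CpG ratio had a rho of 0.38 and an r of 0.46 over the 22 members, and covered length and order in the cluster had a rho of 0.39 and an r of 0.40. The median GC content was 52.5% in marked and 52.4% in unmarked members.

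High CpG ratios went without peaks in Pcdha1 to Pcdha12, whose ratios ranged from 0.613 to 0.773. In the same range 8 Pcdhg members lay, of which 5 were marked and 3 were not with 15000 EMPs. Pcdhac2, the marked Pcdha gene, had a ratio of 0.562, and the unmarked Pcdhac1 had 0.439. All Pcdhb exons lay at or below 0.490. Whether the CpG ratio had a part in the presence or absence of peaks was not tested.

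**Figure D5:**
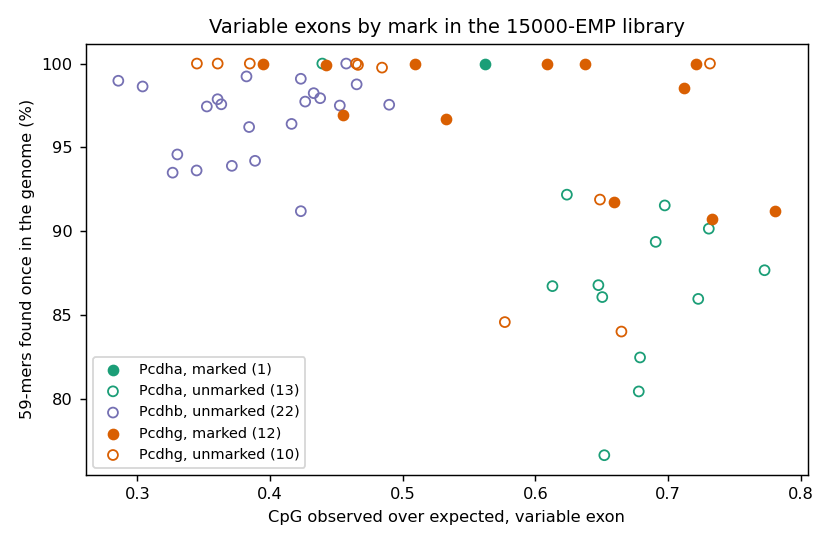
Share of 59-base words found once in the genome (y axis, percent) against the ratio of observed to expected CpG (x axis) for the 58 variable exons, coloured by cluster and filled where a 15000-EMP peak lay over the exon. The 22 Pcdhb exons lie at CpG ratios up to 0.490 and are all unmarked, and Pcdha1 to Pcdha12 lie at 0.613 to 0.773 and are unmarked as well.

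Related and functionally linked genes were counted by the same rules, with all gene lists written from general knowledge. Of 12 nonclustered protocadherins, adhesion proteins encoded by scattered genes, the tables listed 11 with 15000 EMPs, all but Pcdh7, and 6 with 500 EMPs, beside 16.8% and 9.77% of all protein-coding genes. Over the exon with the longest coding part, 7 of 12 and 4 of 12 were marked, beside 10.2% and 5.5% of the other genes with a long exon. Pcdh10 was covered over all 3459 bp of that exon with 15000 EMPs and Pcdh17 over 4833 of 5091 bp, whereas with 500 EMPs the values were 0 and 1430 bp. Some counted exons were only touched by a peak. Pcdh20 was marked through 22 of 4988 bp with 15000 EMPs and 68 bp with 500 EMPs. Pcdh8 was marked through 18 of 2816 bp with 500 EMPs and 2184 bp with 15000 EMPs.

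Of 20 cadherins, which include the classical adhesion molecules Cdh1 and Cdh2, the tables listed 12 with 15000 EMPs and 8 with 500 EMPs, beside 16.8% and 9.77% of all protein-coding genes. Over the promoter window 9 of 20 and 3 of 20 were marked, beside 10.3% and 2.41% of all genes, and over the exon with the longest coding part 1 of 20 and 0 of 20, beside 6.2% and 2.37%. Of 4 partners of clustered protocadherins in signalling, Ret, a receptor tyrosine kinase, was listed in both libraries and the focal adhesion kinase gene Ptk2 with 15000 EMPs. The intervals of these counts, 4.56 to 69.9% with 500 EMPs and 15.004 to 84.996% with 15000 EMPs, included the share of all genes. Of 13 regulators of the locus, such as Ctcf, cohesin subunits, Smchd1 and Dnmt3b, 0 were listed in either library, and the interval of up to 22.8% included the share of all genes in both.

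The genes around the locus and the markers of the sample were checked in the same way. Slc25a2, a mitochondrial carrier gene, and Taf7, a transcription factor subunit gene, lie between Pcdhb and Pcdhg and had no peak. Of 31 neighbours within 500 kb, 4 were listed in each library (12.9%), Cd14, Pcdh1, Pcdh12 and Rnf14, a share between the 9.77% and 16.8% of all protein-coding genes listed with 500 and 15000 EMPs. Of 13 EMP markers, among them Kit, Itga2b and Runx1, 0 were listed in either library, and the interval of up to 22.8% included the share of all genes in both. Of 8 neuronal markers, 7 were listed with 15000 EMPs and 5 with 500 EMPs, beside the same 16.8% and 9.77% of all genes. By the promoter rule 6 and 1 of the 8 were marked, beside 10.3% and 2.41%, and by the exon rule 0 in either library, beside 6.2% and 2.37%. Of 8 endothelial markers, Sox17 and Erg were listed in both libraries and Kdr with 15000 EMPs, and the intervals (7.15 to 59.1% with 500 EMPs and 13.7 to 69.4% with 15000 EMPs) included the share of all genes. A list of peaks of a repressive mark shows which genes carry the mark, not which are expressed, so it cannot show whether any protocadherin was transcribed in these cells.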

How the data were processed

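The sources describe H3K27me3 CUT&RUN of 500 and 15000 EMPs with 1 library each and an IgG library beside each. The authors aligned reads to mm10 (GRCm38) with Bowtie2 2.2.1 and called broad peaks per library with MACS2 2.1.2 at p-value thresholds of 0.01 (500 EMPs) and 0.05 (15000 EMPs). Their listed commands pair each threshold with the opposite cell number's alignments, and the files were taken as labelled. SAMtools 1.9 and deepTools 3.5.1 are named in the submitters' processing notes, and ChIPpeakAnno annotated the peaks per the methods. The deposited files hold peak positions and, per peak, gene symbols with a distance in bp. They hold no score, p-value or read count, so a peak was present or absent, no spread could be estimated and no test was run. IgG peaks were not used here.

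Members, gene lists and rules were chosen with earlier results of these data known. Gene models came from GENCODE vM21 on GRCm38, in which 3 run-through models (Gm42416, Gm37013 and Gm37388) reach from Pcdha into Pcdhg and were not counted as members. The annotation names 2 genes Pcdha11, and the one that starts at 37005203 was called Pcdha10, after the nearest RefSeq start. Positions are 1-based. The main transcript was the one with the longest coding part, an overlap of at least 1 bp counted, and tables were read to 3 kb. Members named with values were, per cluster, the 5 most covered exons with 15000 EMPs, all C-type genes, unmarked members, those at the cluster ends and those with the widest peaks. Other members and list genes were named after their values were seen. Genome shares refer to chromosomes 1 to 19 and X, and unique words were counted on both strands over chromosomes 1 to 19, X and Y. Promoter letters and protein sequences were not analysed here. Alternatives were a minimum covered share, joined peaks, wider peaks, peaks found in both lists, other distance limits and spans, and, chosen after seeing the data, the coding part of the exon alone. Overlap and coverage functions were tested on simulated data. Analyses used Python 3.11.15, numpy 2.4.6, pandas 2.3.3, scipy 1.17.1 and matplotlib 3.10.9.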

Additional observations from a re-analysis of the deposited data

How the results depend on the processing

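Of 200 alternatives over 34 results, 161 left the value within 1.5 times that reported and 39 did not. All 60 for Pcdhb gave 0, as reported, and are among the 161. The peak nearest to a Pcdhb exon lay 118902 bp from that of Pcdhb1 with 15000 EMPs and 120564 bp with 500 EMPs. Dropping peaks, joining close peaks or requiring more cover could not bring a peak there, so these 60 do not show how stable the 0 is. Values for Pcdha stayed within 1.5 times in 47 of 60 alternatives and those for Pcdhg in 42 of 60. For the whole locus 12 of 20 did. The coding part of the exon alone, chosen after seeing the data, moved no count by over 1.5 times. No paired analysis was possible because each group has 1 library. The files hold neither read counts nor peak heights, width stood in for a stricter threshold, and a member without a peak may carry the mark below detection.

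With peaks of at least 500 bp, the 500-EMP counts of marked Pcdha members fell from 1 to 0 under all 3 rules, and its share and number of peaks fell to 0. Among Pcdhg members with 500 EMPs, the promoter count fell from 1 to 0 and the table count from 7 to 4, with 1.15% covered by 3 peaks. The locus then had 0.227% covered by 3 peaks with 500 EMPs, and 17 peaks with 15000 EMPs, 16 of them in Pcdhg. Requiring 25% or 50% of the window covered left 0 Pcdha members with 500 EMPs by the exon and the promoter rule. Requiring 50% left 0 of the 4 Pcdhg exons with 500 EMPs and 6 of the 12 with 15000 EMPs.

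With peaks joined across 1 kb, Pcdha had 1 peak covering 0.611% with 500 EMPs, and 13 Pcdhg peaks and 14 in the locus remained with 15000 EMPs. With 3 kb, Pcdha again had 1 peak and 0.611%. Pcdhg then had 4 peaks, 5.27% covered and 2 marked promoters with 500 EMPs, and 7 peaks and 21.9% with 15000 EMPs. The locus had 5 peaks and 1.21% with 500 EMPs, and 8 peaks and 4.73% with 15000 EMPs. With only peaks that overlap the other list, marked Pcdhg exons fell to 2 with 500 EMPs and 3 with 15000 EMPs, and marked Pcdhg promoters to 0 in both. A table limit of 1 kb left 2 Pcdhg members with 500 EMPs.

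By the exon rule, Pcdhg had at least as many marked members as Pcdha under every alternative run in either library, and Pcdhb stayed at 0. With 500 EMPs and 50% of the exon required, all clusters tied at 0. By the promoter rule the order was reversed when only peaks that overlap the other list were used. Pcdhg then had 0 marked members and Pcdha 1 in both libraries.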
